A study of Mus musculus with 8 samples.

Results

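The extracellular matrix genes described here are the collagen and laminin genes together with a group of named brain matrix genes. All genes whose symbol in the platform annotation is Col followed by a digit (42 genes) or Lama, Lamb or Lamc followed by a digit (10 genes) were taken, with 18 more by name: Abi3bp, Dmkn, the hyalectan genes Acan, Bcan, Ncan and Vcan, the link protein genes Hapln1 to Hapln4, the tenascin genes Tnc and Tnr, Hspg2, Agrn, Nid1, Nid2, Fn1 and Reln. These 70 genes were members of the 18193 genes with a probe set of their own, a probe set being the group of short probes that the array uses for a transcript. Where a gene had several, the one of highest mean signal across the 8 arrays stood for it, so the level chose the probe set. Abi3bp and Dmkn were put on the list because they were among the largest falls in the same comparison, and they are described below without a test; the other 68 genes were taken by family or by name. Col6a6, Col21a1 and Col28a1 were not analysed here.

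RNA was measured in the striatum, a forebrain region of mostly medium spiny projection neurons, of 4 wild-type mice (numbers 42, 48, 54 and 63) and 4 R6/2 mice (64, 65, 70 and 78), with 1 array per mouse. The R6/2 line, a mouse model of Huntington's disease, expresses exon 1 of human HTT with a long CAG repeat from the human HTT promoter. The labels give every mouse as a female aged 12 weeks (85 days), of C57Bl/6 and CBA background. The study's design mentions 5 wild-type mice, and the other one was not analysed here. The comparison asks which striatal transcripts differ between the genotypes at this age.

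Collagens are built from chains that wind into a triple helix, and the family is divided by what the helices form: fibres (types I, II, III, V and XI), sheets (types IV and VIII), beaded microfibrils (type VI), or molecules that sit on fibres or in the cell membrane. Laminins are heterotrimers of an alpha, a beta and a gamma chain, and with type IV collagen, nidogens and heparan sulphate proteoglycans they make the basement membrane, which in the brain lies mainly around blood vessels and under the meninges. The matrix between brain cells has little fibrous collagen; it consists of hyaluronan chains to which hyalectans bind, held by link proteins and cross-linked by tenascin-R, and is densest in the perineuronal nets around some neurons.

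Sequences before the start sites are shown for 3 genes, from RefSeq (GRCm38.p6), which had promoter entries for 52 of the 70 genes. Col6a1 and Col6a2, next to each other on chromosome 10 and transcribed in the same direction, are shown because only Col6a1 passed the test, and Dmkn because it had the larger fall of the listed genes after Abi3bp. Each run holds the 250 bases before the start site, 5′ to 3′ on the strand of the gene, and capitals mark a match to 1 of 3 motifs, searched on both strands.
Col6a1, chr10:76726045-76726294, minus strand: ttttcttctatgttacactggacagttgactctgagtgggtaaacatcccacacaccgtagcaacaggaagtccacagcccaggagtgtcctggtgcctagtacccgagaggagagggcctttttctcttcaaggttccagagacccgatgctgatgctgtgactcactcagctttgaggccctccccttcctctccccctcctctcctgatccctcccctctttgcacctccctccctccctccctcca
Col6a2, chr10:76623631-76623880, minus strand: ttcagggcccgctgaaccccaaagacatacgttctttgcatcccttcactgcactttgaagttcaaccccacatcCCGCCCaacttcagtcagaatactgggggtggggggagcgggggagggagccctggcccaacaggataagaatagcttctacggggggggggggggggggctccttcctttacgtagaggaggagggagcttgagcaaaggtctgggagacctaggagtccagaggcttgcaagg
Dmkn, chr7:30763506-30763755, plus strand: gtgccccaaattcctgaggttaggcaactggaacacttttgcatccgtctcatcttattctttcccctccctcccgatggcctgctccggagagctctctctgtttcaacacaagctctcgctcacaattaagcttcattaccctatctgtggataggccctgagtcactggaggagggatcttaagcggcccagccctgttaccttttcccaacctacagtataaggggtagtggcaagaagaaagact
The motifs were the TATA box (TATAAA), the GC box (GGGCGG) and the CCAAT box (CCAAT), which do not overlap each other in these runs. Col6a2 had a GC box on the opposite strand, from -175 to -170 relative to the start site, and no match was found in the runs of Col6a1 and Dmkn. Over all 32851 promoter entries, 12.4% held the TATA box, 32.7% the GC box and 33.8% the CCAAT box in the same 250 bases. Col4a1 and Col4a2, which fell together, lie head to head on chromosome 8. The start of Col4a1 (minus strand, 11312826) and that of Col4a2 (plus strand, 11312805) are so close that the first 22 bases of both transcripts overlap. These bases hold 1 GC box, in capitals.
Col4a1 and Col4a2 starts, chr8:11312805-11312826, plus strand: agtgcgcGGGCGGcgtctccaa

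In the striatum of R6/2 mice, transcripts of both chains of the common type IV collagen (Col4a1 and Col4a2), of 2 type VI chains (Col6a1 and Col6a4), of Col19a1, of brevican (Bcan) and of the link protein gene Hapln1 were lower, and the link protein gene Hapln4 was higher. The falls were of 1.36-fold to 1.67-fold, much smaller than those of Abi3bp and Dmkn, which were listed because of their large falls. Col4a2 and Hapln4 each kept the call in only 2 of the 8 repeats that left out 1 mouse, and Col6a4 and Hapln1 were dim. None of the 10 laminin genes passed the test, which in so short a list is near the share of 15.3% over all genes. Of these 10 genes, 6 were dim. Differences are R6/2 minus wild-type in log2 units with the moderated standard error (SE) of limma, p-values are adjusted by Benjamini-Hochberg over all 18193 genes, and a gene passed at an adjusted p under 0.05.

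Of the 68 genes, 7 fell, 1 rose and 60 did not pass. That is 11.8% of them, against 15.3% of all genes tested, so a change of either kind was not more frequent than in the background. By direction, 10.3% fell against 6.19% of all genes, and 1.47% rose against 9.09%. The median log2 difference was -0.050, against -0.0034 over all genes. R6/2 and wild-type values had no overlap in 11 of the 68 genes (16.2%), against 19.4% of all genes. An unadjusted limma p under 0.05 was found in 19 of the 68 genes and in 5382 of all 18193 genes. The counts of such p-values given below are to be read against that background. Many of the genes were dim. 9 probe sets of 3 Y-linked genes that females lack lay at up to 3.67 and 4 of Y-linked genes of the testis at up to 5.37, and 40 of the 68 genes (58.8%) had a mean at or below that second value, against 40.9% of all genes.

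**Figure D1:**
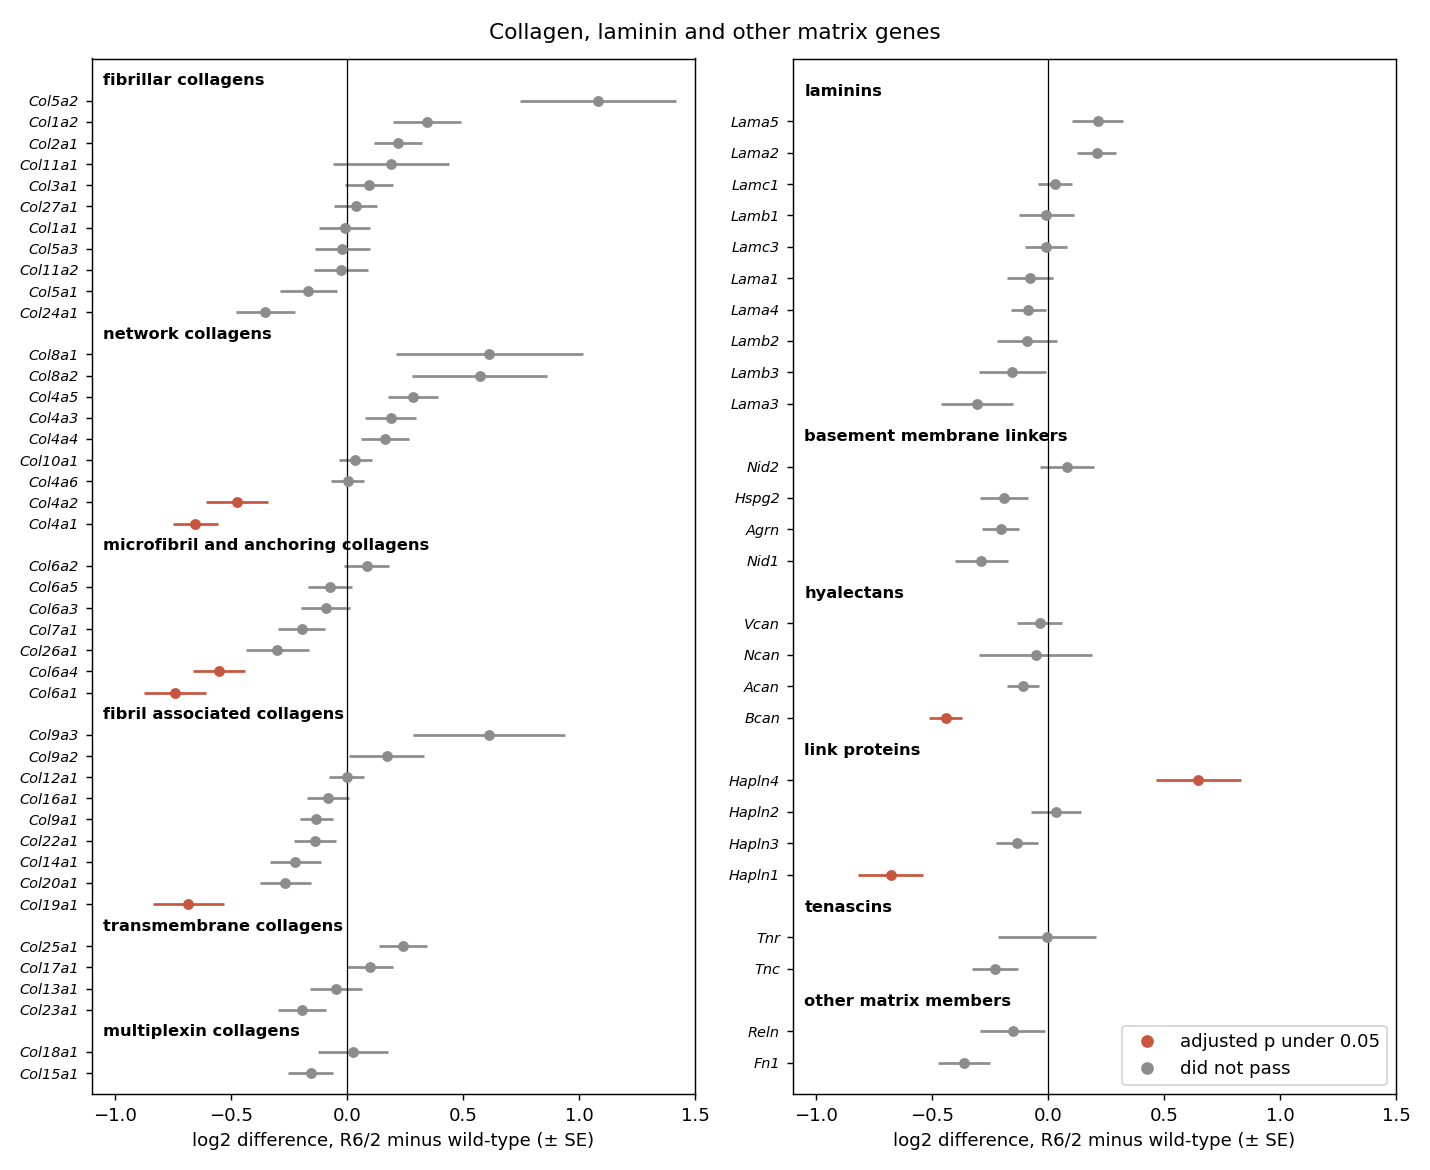
Log2 difference between R6/2 and wild-type mice (x axis, limma, bars are SE) for 68 collagen, laminin and other matrix genes, grouped by family; red points passed an adjusted p of 0.05. The red points are Col4a1, Col4a2, Col6a1, Col6a4, Col19a1, Bcan and Hapln1 to the left of 0 and Hapln4 to the right; the wide bars belong to Col5a2, Col8a1, Col8a2 and Col9a3.

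The chains of type IV collagen, which form the network of basement membranes, did not move alike. Col4a1 values were 8.15, 7.94, 7.80 and 7.91 in wild-type mice 42, 48, 54 and 63 and 7.27, 7.13, 7.46 and 7.33 in R6/2 mice 64, 65, 70 and 78, on the log2 scale. Each R6/2 mouse lay below each wild-type mouse, and the difference was -0.65 ± 0.10 (1.57-fold, adjusted p = 0.00210). Its partner Col4a2 lay at 7.21, 6.93, 6.68 and 6.81 in the wild-type mice and 6.28, 6.21, 6.58 and 6.67 in the R6/2 mice, in the same order of mice as above. The R6/2 mice were again the lower ones, although wild-type mouse 54 and R6/2 mouse 78 were almost level (-0.47 ± 0.13, adjusted p = 0.0388). The call of Col4a2 was lost without any of 6 of the mice (wild-type 42, 48 or 63, R6/2 64, 65 or 70), with adjusted p of up to 0.102, while that of Col4a1 was kept without each mouse. The other probe set of Col4a1 moved less and did not pass, as given below. The remaining chains, which make the type IV networks of kidney, lung and other specialised membranes, did not pass: Col4a3 (0.19 ± 0.11), Col4a4 (0.17 ± 0.10), Col4a5 (0.28 ± 0.11) and Col4a6 (0.0038 ± 0.071). In Col4a5 the groups did not overlap, with the R6/2 mice higher (3.96 ± 0.11 in wild-type and 4.24 ± 0.21 in R6/2 mice, SD, n = 4 each, adjusted p = 0.108), and Col4a4 passed without R6/2 mouse 64 (adjusted p = 0.0488). Col4a3, Col4a4 and Col4a5 were dim, with means of 3.78, 3.67 and 4.10, near the Y-linked level (up to 3.67). All wild-type values of Col4a4 lay below that level.

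Endothelial cells, which make much of the vascular basement membrane, were represented by 13 marker genes. Of these, 6 fell (46.2%, against 15.3% of all genes called) and none rose. Among them were the tight junction gene Cldn5 (-0.84 ± 0.14, adjusted p = 0.00374), the drug efflux pump gene Abcb1a (-0.58 ± 0.089, adjusted p = 0.00240) and the growth factor receptor genes Kdr (-0.52 ± 0.11, adjusted p = 0.0118) and Flt1 (-0.39 ± 0.090, adjusted p = 0.0165). The mean of the 13 markers relative to the wild-type mean was -0.10 to 0.093 in wild-type and -0.41 to -0.19 in R6/2 mice, with no overlap. Of 13 genes of mural cells, the pericytes and smooth muscle cells of vessels, 2 fell (Tagln, -0.64 ± 0.13, and Mcam, -0.37 ± 0.092) and none rose. That is 15.4% of them, about the background share of 15.3% of all genes. The means of the 13 genes were -0.081 to 0.046 in wild-type and -0.19 to -0.11 in R6/2 mice. The call of Mcam was lost without wild-type mouse 63, R6/2 mouse 64 or R6/2 mouse 70 (adjusted p up to 0.0672). The part of these cells in the falls of Col4a1 and Col4a2 was not tested, and in whole tissue, fewer cells of a type and less RNA per cell cannot be told apart.

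Among the type VI chains, Col6a1 fell and its usual partners did not. Col6a1 was 8.55, 8.91, 9.02 and 8.93 in wild-type mice 42, 48, 54 and 63 and 8.08, 7.83, 8.42 and 8.10 in R6/2 mice 64, 65, 70 and 78. All R6/2 mice lay below all wild-type mice, R6/2 mouse 70 and wild-type mouse 42 being nearest (-0.74 ± 0.13, 1.67-fold, adjusted p = 0.00526). Col6a2 differed by 0.085 ± 0.10 (adjusted p = 0.614), and its other probe set by 0.066 ± 0.078, adjusted p = 0.658 over probe sets. Col6a3, which was dim with a mean of 4.45, differed by -0.091 ± 0.10, adjusted p = 0.611. Col6a4, which encodes a further type VI chain of the mouse, was lower in every R6/2 mouse, with 4.93, 5.20, 5.46 and 5.20 in the wild-type mice and 4.67, 4.47, 4.76 and 4.68 in the R6/2 mice (-0.55 ± 0.11, adjusted p = 0.00899), and its dimmer probe set moved less (-0.090 ± 0.073, adjusted p = 0.496 over probe sets). Of the other genes of this group, Col6a5, Col7a1 (the collagen of anchoring fibrils in skin) and Col26a1 had differences of -0.073, -0.19 and -0.30 and did not pass. Both Col6a1 and Col6a4 passed without each mouse in turn, with adjusted p up to 0.0199 and 0.0285. Col6a4 was dim, with a mean of 4.92, below the 5.37 of the testis Y-linked probe sets, and it was among the dimmest 40% of genes.

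Col19a1, a fibril-associated collagen that interneurons of the mouse brain make and that is known for a part in synapse formation, fell. Its values were 6.46, 5.98, 5.66 and 6.05 in the wild-type mice and 5.56, 5.18, 5.22 and 5.44 in the R6/2 mice. The groups did not overlap, and wild-type mouse 54 was the lowest of its group (-0.68 ± 0.15, 1.61-fold, adjusted p = 0.0147). 1 other probe set of Col19a1 fell as well (-0.85 ± 0.20, adjusted p = 0.0235 over probe sets), and a dim one did not (0.14 ± 0.10, adjusted p = 0.442 over probe sets). The call was kept without each mouse, with adjusted p up to 0.0483. Beside it, 3 of 12 striatal interneuron markers fell (Npy, -0.72 ± 0.12, Nos1, -0.51 ± 0.089, and Sst, -0.47 ± 0.12), which is 25%, against 15.3% of all genes called. The mean of the 12 was -0.049 to 0.10 in wild-type and -0.44 to -0.20 in R6/2 mice. Sst lost its call when any of wild-type 48 and 63 and R6/2 70 and 78 was left out (adjusted p up to 0.0655), and the part of these cells in the fall of Col19a1 was not tested. Of the other 8 fibril-associated collagen genes none passed with limma, and 1 had an unadjusted p under 0.05. That gene was Col20a1 (-0.26 ± 0.11, adjusted p = 0.130), 2 of whose 3 other probe sets fell (-0.52 ± 0.11, adjusted p = 0.0154 over probe sets, and -0.32 ± 0.083, adjusted p = 0.0390 over probe sets). Col20a1 passed with the mean of its probe sets (-0.32, adjusted p = 0.00976). Apart from Col9a3, described below, the remaining ones, Col9a1, Col9a2, Col12a1, Col14a1, Col16a1 and Col22a1, lay between -0.22 and 0.17.

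**Figure D2:**
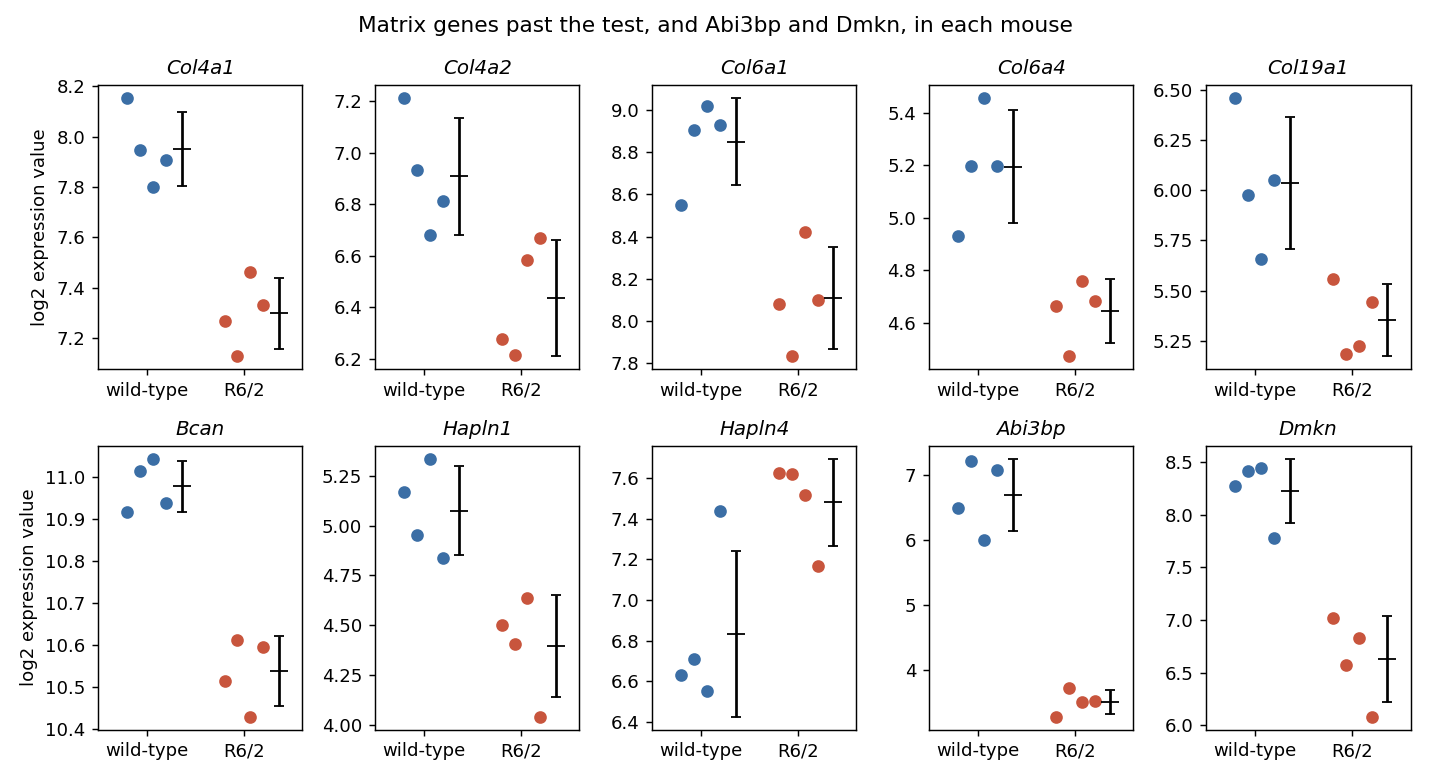
Log2 expression values (y axis, a separate scale in each panel) of the 8 matrix genes that passed the test and of Abi3bp and Dmkn. Blue points are wild-type and red points R6/2 mice, in order of mouse number, and bars give the mean ± SD of 4 mice. The groups overlap in Hapln4, through wild-type mouse 63 at 7.43, and in no other panel.

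None of the 11 fibrillar collagen genes passed with limma, which is also near the background of 15.3% in a list of this length, and 3 had an unadjusted p under 0.05. Over all 18193 genes, 5382 had such a p. Of the 11 genes, 7 were dim, with a mean at or below the 5.37 of the testis Y-linked probe sets. Among them were Col1a1, Col3a1, Col5a1 and Col5a3. The chains of type I and III collagen, the main collagens of connective tissue, were at 4.35 ± 0.16 in wild-type and 4.34 ± 0.18 in R6/2 mice for Col1a1, 6.59 ± 0.22 in wild-type and 6.93 ± 0.28 in R6/2 mice for Col1a2 and 4.20 ± 0.21 in wild-type and 4.29 ± 0.089 in R6/2 mice for Col3a1 (SD, n = 4 each). Their differences were -0.0085 ± 0.11, adjusted p = 0.971, 0.35 ± 0.15, adjusted p = 0.142 and 0.10 ± 0.10, adjusted p = 0.589. The widest difference was that of Col5a2, a chain of the type V collagen that starts fibrils, with 4.26, 4.87, 6.11 and 5.07 in wild-type mice 42, 48, 54 and 63 and 5.89, 6.64, 6.38 and 5.73 in R6/2 mice 64, 65, 70 and 78. Wild-type mouse 54 lay among the R6/2 mice, so the groups overlapped, and the difference of 1.08 ± 0.34 (2.12-fold) missed the threshold (adjusted p = 0.0535). A second probe set gave the same size (1.08 ± 0.34, adjusted p = 0.0766 over probe sets). Without wild-type mouse 54 the difference was 1.43 (adjusted p = 0.00683), and without each of the other mice it did not pass. Col5a1 and Col5a3, the chains that join Col5a2 in type V collagen, differed by -0.17 ± 0.12 and -0.020 ± 0.12 and did not pass. Col24a1 was dim and was lower in every R6/2 mouse (-0.35 ± 0.13, adjusted p = 0.0903), and Col11a1 varied widely in both groups (4.97 ± 0.52 in wild-type and 5.16 ± 0.39 in R6/2 mice). Col2a1, the fibrillar collagen of cartilage, differed by 0.22 ± 0.11, adjusted p = 0.193, and it passed without wild-type mouse 54 (0.32, adjusted p = 0.0420). Col11a2 and Col27a1 differed by -0.026 and 0.038.

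Wild-type mouse 54 also stood apart in genes of cortical projection neurons, which lie next to the dissected striatum. The mean of 13 such genes was -0.58 in that mouse, against 0.094 to 0.24 in the other wild-type mice, and -0.11, -1.01, -0.51 and -0.83 in R6/2 mice 64, 65, 70 and 78. 2 of the 13 genes fell, Rasgrf2 (-0.85 ± 0.13) and Slc30a3 (-0.67 ± 0.12), and none rose. This share of 15.4% was about that of all genes (15.3%). All 13 differences were below 0, and 8 had an unadjusted limma p under 0.05, against 5382 of all 18193 genes. In wild-type mouse 54, Rasgrf2 (8.47) lay within the range of the other wild-type mice (8.33 to 8.72). Slc30a3 (6.83) lay below theirs (7.06 to 7.33). The part of these neurons in the values of Col5a2 was not tested.

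Col10a1, the sheet-forming collagen of growing cartilage, was dim and differed by 0.036. 3 further collagen genes varied widely within both groups. Col8a1, a short-chain collagen that forms sheets under endothelial cells, was 5.33, 5.77, 4.92 and 6.62 in wild-type mice 42, 48, 54 and 63 and 5.22, 7.07, 6.53 and 6.28 in R6/2 mice 64, 65, 70 and 78. R6/2 mouse 64 lay near the low end and wild-type mouse 63 near the high end, so that the groups overlapped over most of their range (0.61 ± 0.40, adjusted p = 0.351). Col8a2, its partner chain, was 3.54, 3.85, 3.97 and 4.42 in the wild-type mice and 3.62, 5.21, 4.61 and 4.64 in the R6/2 mice (0.57 ± 0.29, adjusted p = 0.220). Col9a3, a chain of the type IX collagen best known from cartilage, was 7.07, 7.10, 6.47 and 7.72 in the wild-type mice and 6.68, 8.12, 7.89 and 8.12 in the R6/2 mice (0.61 ± 0.33, adjusted p = 0.248). Without R6/2 mouse 64, the lowest R6/2 mouse in all 3, Col8a2 (0.87, adjusted p = 0.0291) and Col9a3 (0.95, adjusted p = 0.0318) passed.

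The mice with high values were also high in markers of the choroid plexus, the secretory epithelium of the ventricle beside the striatum. The mean of 11 choroid plexus markers relative to the wild-type mean was 1.75, 1.50 and 0.99 in R6/2 mice 65, 70 and 78 and 1.17 in wild-type mouse 63. It was 0.19 and -0.27 in wild-type mice 48 and 42, and -1.09 and -1.17 in wild-type mouse 54 and R6/2 mouse 64. The 4 mice with the highest scores were also the 4 with the highest values of Col8a1, Col8a2 and Col9a3. None of the 11 markers passed with limma, and none had an unadjusted p under 0.05, with Ttr at 13.40 ± 0.92 in wild-type and 13.66 ± 0.93 in R6/2 mice and Clic6 at 8.30 ± 0.75 in wild-type and 9.10 ± 0.86 in R6/2 mice. Of 13 markers of the fibroblasts of the meninges, none passed and 2 had an unadjusted p under 0.05, among them Dcn (0.38 ± 0.13, adjusted p = 0.0688), and their mean was -0.22 to 0.28 in wild-type and -0.077 to 0.25 in R6/2 mice. The same 4 mice had the highest meningeal means, 0.28 in wild-type mouse 63 and 0.23, 0.25 and 0.19 in R6/2 mice 65, 70 and 78, the next being 0.068. Dcn passed without the dimmest genes (adjusted p = 0.0499), without wild-type mouse 63 (0.0343) and without R6/2 mouse 64 (0.0350). The part of choroid plexus or meninges in the 3 collagen genes was not tested.

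**Figure D3:**
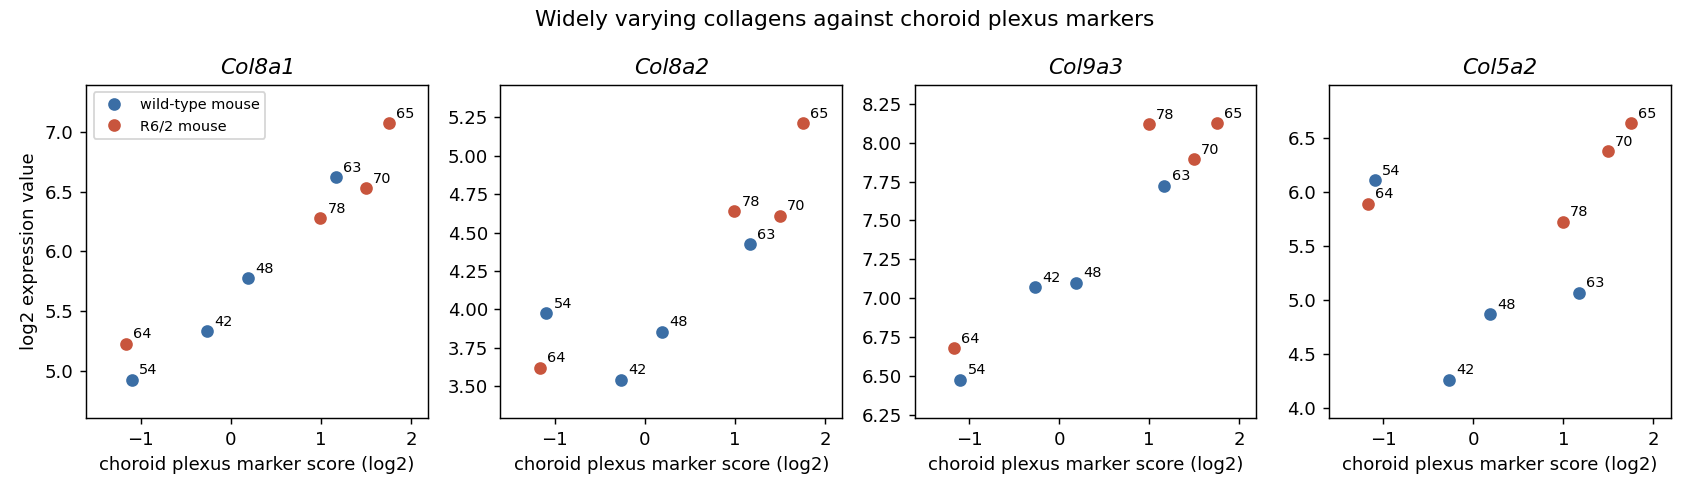
Log2 expression values of Col8a1, Col8a2, Col9a3 and Col5a2 (y axes, a separate scale in each panel) against the mean of 11 choroid plexus markers relative to the wild-type mean (x axis, log2), 1 point per mouse with its number. In the first 3 panels R6/2 mice 65, 70 and 78 and wild-type mouse 63 lie at the upper right; in Col5a2 wild-type mouse 54, at 6.11, lies among the R6/2 mice.

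The transmembrane collagens (Col13a1, Col17a1, Col23a1 and Col25a1) and the multiplexins (Col15a1 and Col18a1, whose tail gives endostatin) did not pass, and of these 6 genes 1 had an unadjusted p under 0.05. That gene was Col25a1, the neuronal collagen found in amyloid plaques of human Alzheimer's disease, with 7.13, 6.84, 6.79 and 6.82 in the wild-type mice and 7.32, 7.19, 7.07 and 6.96 in the R6/2 mice (0.24 ± 0.10, adjusted p = 0.148). A second probe set of Col25a1 gave 0.025 ± 0.12, adjusted p = 0.925 over probe sets. The other 5 differed by between -0.19 (Col23a1) and 0.10 (Col17a1, the collagen of hemidesmosomes), with Col13a1 at -0.046, Col15a1 at -0.16 and Col18a1 at 0.028.

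None of the 10 laminin genes passed with limma, and 1, Lama2, had an unadjusted p under 0.05; with 15.3% of all genes called, a count of 0 in so short a list is near the background. Lama2, the alpha chain of muscle and of the glial side of brain vessels, was 5.80, 5.73, 5.60 and 5.56 in the wild-type mice and 5.89, 5.73, 5.98 and 5.92 in the R6/2 mice; R6/2 mouse 65 lay at the level of wild-type mouse 48 and below wild-type mouse 42, and the other R6/2 mice above all wild-type mice (0.21 ± 0.085, adjusted p = 0.123). The alpha chains of endothelial basement membranes differed by -0.085 ± 0.075 (Lama4) and 0.21 ± 0.11 (Lama5), and the other alpha chains by -0.076 ± 0.10 (Lama1) and -0.31 ± 0.16 (Lama3). The widely used beta and gamma chains were at 8.08 ± 0.12 in wild-type and 8.07 ± 0.24 in R6/2 mice for Lamb1 and 6.31 ± 0.094 in wild-type and 6.34 ± 0.056 in R6/2 mice for Lamc1, differences of -0.0076 ± 0.12 and 0.031 ± 0.073. Lamb2, Lamb3 and Lamc3 differed by -0.091 ± 0.13, -0.15 ± 0.14 and -0.0094 ± 0.090. The laminin differences lay between -0.31 and 0.21, with a median of -0.043. Lama3 passed without wild-type mouse 63 (-0.47, adjusted p = 0.0244). Dim genes, with a mean at or below the 5.37 of the testis Y-linked probe sets, made up 6 of the 10 laminins. Col4a1 and Col4a2 had means of 7.62 and 6.67. The falls of Col4a1 and Col4a2 were not accompanied by a call in the laminin genes, and a difference between the families was not tested.

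The 4 genes whose products join laminin and type IV collagen or bind to them did not pass either, and 2 had an unadjusted p under 0.05. Agrn, the proteoglycan agrin that clusters acetylcholine receptors in muscle, was lower in every R6/2 mouse, by a narrow margin, with 9.49, 9.67, 9.64 and 9.49 in the wild-type mice and 9.36, 9.22, 9.48 and 9.41 in the R6/2 mice (-0.20 ± 0.081, adjusted p = 0.119). Agrn passed with the mean of its probe sets (-0.24, adjusted p = 0.0257). Nid1, the nidogen that bridges both networks, differed by -0.29 ± 0.11, adjusted p = 0.117, with overlapping groups. Hspg2, which encodes perlecan, differed by -0.19 ± 0.10, adjusted p = 0.262, and Nid2 by 0.083 ± 0.12, adjusted p = 0.691. Fn1, fibronectin, was 7.28, 7.08, 6.90 and 6.86 in the wild-type mice and 6.86, 6.68, 6.46 and 6.67 in the R6/2 mice, and the groups met at the R6/2 mouse 64 and wild-type mouse 63 value. Its difference of -0.36 ± 0.11 missed the threshold (adjusted p = 0.0529), and it passed after quantile normalization, without the dimmest genes, without wild-type mouse 63 and without R6/2 mouse 64 (adjusted p between 0.0336 and 0.0451).

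Of the hyalectans, the proteoglycans of the matrix between brain cells, brevican fell. Bcan was 10.92, 11.02, 11.04 and 10.94 in wild-type mice 42, 48, 54 and 63 and 10.51, 10.61, 10.43 and 10.60 in R6/2 mice 64, 65, 70 and 78. The spread within each group was small, and the groups were well apart (-0.44 ± 0.072, 1.36-fold, adjusted p = 0.00316). The other probe set of Bcan fell by a larger amount (-0.62 ± 0.082, adjusted p = 0.00214 over probe sets), and the call held without each mouse, with adjusted p up to 0.0137. Astrocytes, a main source of brevican, had 5 of 13 markers lower (38.5%, against 15.3% of all genes called) and none higher. Among the 5 were the glutamate transporter genes Slc1a3 (-0.38 ± 0.076) and Slc1a2 (-0.54 ± 0.16) and the glycolytic enzyme gene Aldoc (-0.32 ± 0.070). The astrocyte marker means were -0.11 to 0.17 in wild-type and -0.35 to -0.21 in R6/2 mice. Of 9 markers of oligodendrocyte progenitors, which also make brevican, none fell and 1 rose (Lhfpl3, 0.40 ± 0.11, a share of 11.1%). Their means were -0.084 to 0.10 in wild-type and -0.022 to 0.086 in R6/2 mice. The calls of Slc1a2 and Lhfpl3 were lost without any of 7 and 5 of the mice, with adjusted p of up to 0.119 and 0.0921. With all mice kept, Slc1a2 missed the threshold after quantile normalization (adjusted p = 0.0611) and with trended robust moderation (0.0571), and Lhfpl3 after quantile normalization (0.0709) and with the mean of its probe sets (0.166). The part of either cell type in the fall of Bcan was not tested.

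For neurocan the probe sets disagreed. The probe set with the highest mean gave 8.70, 9.85, 9.83 and 10.03 in the wild-type mice and 9.62, 9.56, 9.38 and 9.64 in the R6/2 mice. Wild-type mouse 42 was far below its group and below all R6/2 mice, while the other 3 wild-type mice were above all R6/2 mice (-0.054 ± 0.24, adjusted p = 0.910). Without wild-type mouse 42 the difference was -0.36 (adjusted p = 0.0318). A second probe set of Ncan, at a mean of 8.35, was lower in R6/2 mice (-0.83 ± 0.14, adjusted p = 0.00613 over probe sets), and its remaining one differed by 0.030 ± 0.089, adjusted p = 0.878 over probe sets. Vcan, versican, differed by -0.035 ± 0.10, and its 7 other probe sets by between -0.046 and 0.11. Acan, aggrecan, the hyalectan of perineuronal nets, was dim and differed by -0.11 ± 0.070, adjusted p = 0.336.

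Link proteins, which fasten hyalectans to hyaluronan, went in both directions. Hapln1, the link protein of cartilage and of perineuronal nets, was 5.17, 4.95, 5.34 and 4.84 in the wild-type mice and 4.50, 4.41, 4.64 and 4.04 in the R6/2 mice. Each R6/2 mouse lay below each wild-type mouse (-0.68 ± 0.14, 1.60-fold, adjusted p = 0.0103). Hapln1 was dim, with all values below the 5.37 of the testis Y-linked probe sets, and it was among the dimmest 40% of genes. Of its 3 other probe sets, all dimmer, 2 fell (-0.47 ± 0.084, adjusted p = 0.00824 over probe sets, and -0.36 ± 0.084, adjusted p = 0.0242 over probe sets) and 1 did not pass (-0.16 ± 0.12, adjusted p = 0.462 over probe sets). Hapln4, a link protein of the brain known from perineuronal nets, was 6.63, 6.71, 6.55 and 7.43 in the wild-type mice and 7.62, 7.62, 7.51 and 7.17 in the R6/2 mice. It was higher in R6/2 mice than in wild-type mice 42, 48 and 54, whereas wild-type mouse 63 lay within the R6/2 range (0.65 ± 0.18, 1.57-fold, adjusted p = 0.0381). The call of Hapln4 was lost after quantile normalization (adjusted p = 0.0528) and without any of 6 mice (wild-type 42, 48 or 54, R6/2 64, 65 or 70), with adjusted p of up to 0.100. When wild-type mouse 63 was left out, the difference was 0.85 (adjusted p = 0.00199). Hapln2, a link protein of the nodes of Ranvier, differed by 0.035 ± 0.11 and Hapln3 by -0.13 ± 0.092, and neither passed.

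**Figure D4:**
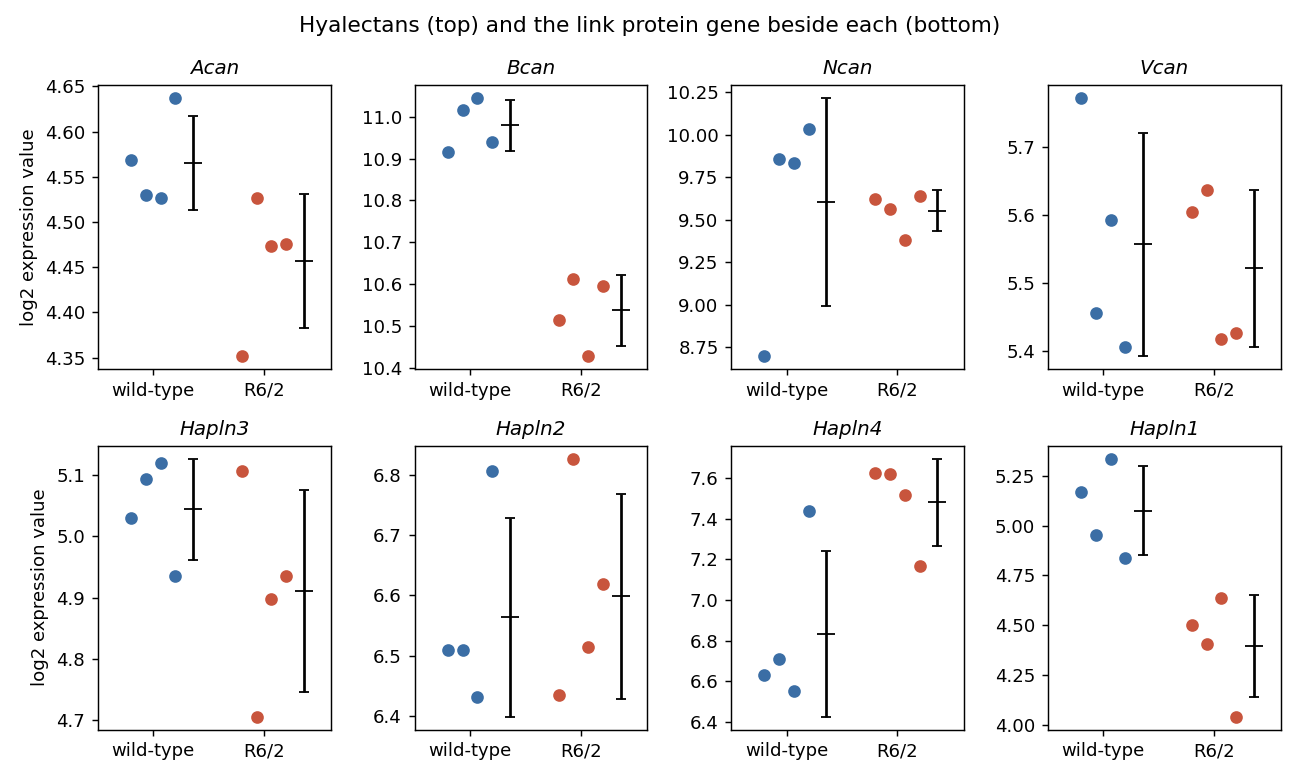
Log2 expression values (y axis, a separate scale in each panel) of the 4 hyalectan genes (top) and of the link protein gene next to each on its chromosome (bottom). Blue points are wild-type and red points R6/2 mice, in order of mouse number, and bars give the mean ± SD of 4 mice; the low wild-type point of Ncan is mouse 42, at 8.70.

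Several of these genes are neighbours, which the choice by name did not use. In the order of protein-coding genes of GRCm38.p6, 11 pairs of the 70 genes stood next to each other. In 1 pair, Col4a1 with Col4a2, both genes passed, in the same direction. In 6 pairs 1 gene passed and the other did not: Col6a1 with Col6a2, Col6a4 with Col6a5, Col19a1 with Col9a1, Bcan with Hapln2, Hapln1 with Vcan, and Hapln4 with Ncan. In the other 4 pairs (Col3a1 with Col5a2, Col4a3 with Col4a4, Col4a5 with Col4a6, and Acan with Hapln3) neither passed. Each of the 4 hyalectan genes thus has a link protein gene beside it. For Col6a1 and Col6a2, whose upstream sequences are shown above, the differences were -0.74 and 0.085.

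**Figure D5:**
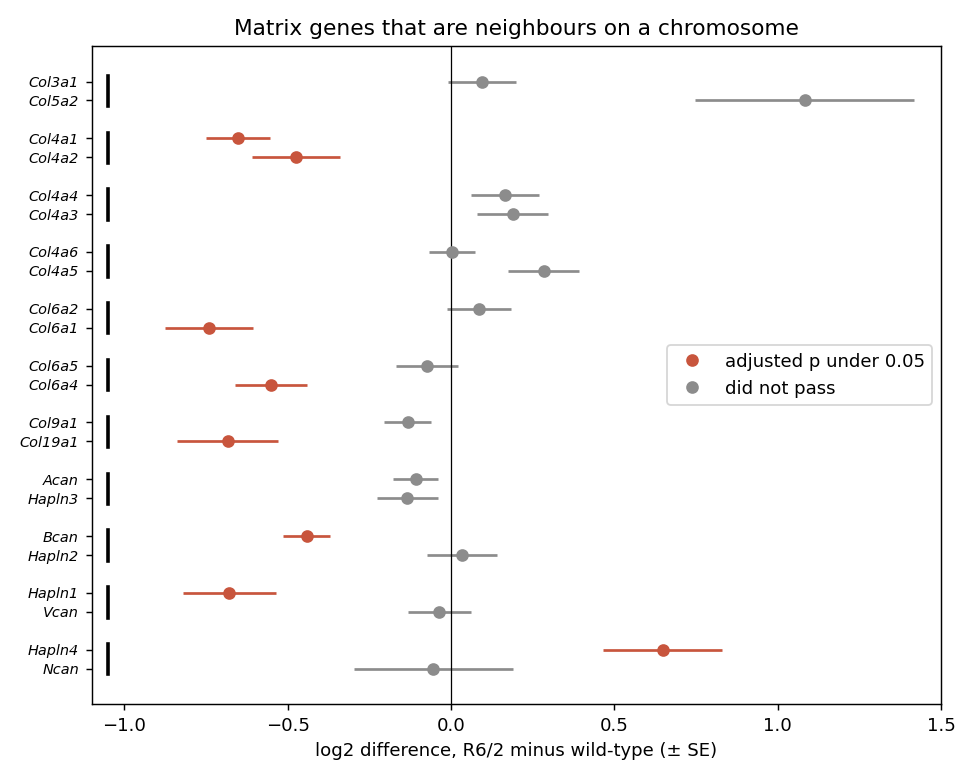
Log2 difference between R6/2 and wild-type mice (x axis, limma, bars are SE) for the 11 pairs of matrix genes that are next to each other on a chromosome; black bars at the left join the genes of a pair, and red points passed an adjusted p of 0.05. Both points are red in 1 pair, Col4a1 and Col4a2, at -0.65 and -0.47.

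Tenascin-R, the cross-linker of hyalectans, and tenascin-C did not pass. Tnr was 7.50, 6.92, 7.07 and 6.63 in the wild-type mice and 7.45, 7.18, 6.52 and 6.95 in the R6/2 mice, with groups that overlapped (-0.0038 ± 0.21, adjusted p = 0.993). Tnc was lower in every R6/2 mouse, with 4.64, 4.69, 4.68 and 5.06 in the wild-type mice and 4.59, 4.54, 4.46 and 4.59 in the R6/2 mice, although wild-type mouse 63 was far above the rest of its group (-0.23 ± 0.10, adjusted p = 0.154). Reln, the secreted signal reelin that guides migrating neurons and acts at synapses in the adult, was 10.84, 10.53, 10.58 and 10.10 in the wild-type mice and 10.51, 10.25, 10.45 and 10.22 in the R6/2 mice. The groups overlapped over most of their range (-0.15 ± 0.14, adjusted p = 0.519).

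The falls of Abi3bp and Dmkn, for which both were chosen, are given as values. Abi3bp, an extracellular matrix protein, was 6.49, 7.21, 6.00 and 7.08 in wild-type mice 42, 48, 54 and 63 and 3.28, 3.72, 3.51 and 3.52 in R6/2 mice 64, 65, 70 and 78. The R6/2 values lay about the level of the Y-linked probe sets (up to 3.67), so only a bound can be given, a fall of at least 8.05-fold, taken against the higher of the R6/2 value and that level on each array. The second probe set of Abi3bp was at 4.77 ± 0.47 in wild-type mice and below the Y-linked maximum in all R6/2 mice (3.17 ± 0.13). The bound of 8.05-fold holds for the first probe set only, which is of a kind that can match several transcripts. Without probe sets of that kind the second one stood for Abi3bp, and the difference was -1.60. With the mean of its probe sets it was -2.40. Both sizes are limited by the Y-linked level. Dmkn, dermokine, a secreted protein best known from the epidermis, was 8.27, 8.41, 8.44 and 7.78 in the wild-type mice and 7.02, 6.58, 6.83 and 6.08 in the R6/2 mice. All R6/2 mice lay below the lowest wild-type mouse, number 63, and the difference was -1.60 (3.03-fold).

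Among the 68 genes, 44 had more than 1 probe set of their own, with 70 other probe sets in all. In 16 of these the sign was opposite to that of the probe set used, and 7 passed (10%), in a test over all 45037 probe sets in which 10.1% passed. Those that passed, of Bcan, Hapln1, Col19a1, Col20a1 and Ncan, are given above. The other probe set of Col4a1 moved less (-0.22 ± 0.12, adjusted p = 0.286 over probe sets).

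Other genes of matrix building, turnover and binding were counted in the same fit, in lists made for this purpose. Of 142 such genes 19 fell, 4 rose and 119 did not pass (16.2%, against 15.3% of all genes), with a median of -0.056. Of 21 genes for enzymes and chaperones of collagen making, 4 fell and none rose. They were Adamts3, a protease that trims procollagen and also cuts reelin (-0.91 ± 0.10, adjusted p = 0.000372), the prolyl 3-hydroxylase family gene P3h3 (-1.01 ± 0.15, adjusted p = 0.00205), P4ha1, the catalytic subunit of a prolyl 4-hydroxylase (-0.39 ± 0.10, adjusted p = 0.0264), and the lysyl oxidase-like gene Loxl4 (-0.35 ± 0.10, adjusted p = 0.0413). Adamts3 and P3h3 changed by more than any of the 68 genes that passed.

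Of 21 genes for matrix proteases and their inhibitors, 4 fell and 1 rose. The metalloproteinase inhibitor gene Timp2 rose (0.59 ± 0.084, adjusted p = 0.00162), and the membrane-anchored metalloproteinase genes Mmp17 (-0.69 ± 0.10, adjusted p = 0.00183) and Mmp24 (-0.49 ± 0.11, adjusted p = 0.0141) and the tissue plasminogen activator gene Plat (-0.36 ± 0.090, adjusted p = 0.0243) were among those that fell. Of 25 matrix receptor genes, 4 fell and 1 rose. Itga5, the alpha subunit of the classical fibronectin receptor, fell 2.00-fold (SE 0.14 in log2 units, adjusted p = 0.00123), but it did not pass without the probe sets that can match several transcripts, where another one was used (-0.17, adjusted p = 0.339). The agrin receptor gene Lrp4 (-0.51 ± 0.12, adjusted p = 0.0192) and Itga9 (-0.49 ± 0.13, adjusted p = 0.0259) fell by smaller amounts, and Itgav rose (0.28 ± 0.070, adjusted p = 0.0229). Of 20 matricellular genes, whose products modulate the matrix, 4 fell and 1 rose: Smoc1 rose (0.71 ± 0.10, adjusted p = 0.00185), while Spon1 (-0.63 ± 0.14, adjusted p = 0.0158), Spock3 (-0.58 ± 0.16, adjusted p = 0.0299) and Thbs3 (-0.48 ± 0.14, adjusted p = 0.0385) were among those that fell. Of 20 hyaluronan and chondroitin sulphate enzymes, Ugdh, which makes a sugar building block of both, rose (0.53 ± 0.091, adjusted p = 0.00411), the chondroitin synthase gene Chsy3 fell (-0.56 ± 0.11, adjusted p = 0.00660) and 18 did not pass. Of 14 cell surface proteoglycans only Cspg5 fell (-0.31 ± 0.080, adjusted p = 0.0260), and of 21 small proteoglycans and elastic fibre genes only Fbln5, fibulin-5 (-0.75 ± 0.13, adjusted p = 0.00361), and none rose in these 2 lists. The share called in the lists of this paragraph ran from 4.76% (small proteoglycans and elastic fibre) to 25% (matricellular), against 15.3% of all genes. Of the pathway genes given here with values, Adamts3, P3h3, Timp2, Mmp17, Mmp24, Itga5, Smoc1, Spon1, Ugdh, Chsy3 and Fbln5 passed without each mouse in turn. P4ha1, Loxl4, Plat, Lrp4, Itga9, Itgav, Spock3, Thbs3 and Cspg5 each lost the call without at least 3 of the mice, with adjusted p of up to 0.110. When all probe sets of a gene were averaged, Loxl4 differed by -0.079, Mmp24 by -0.18 and Itgav by 0.072, and P4ha1 and Spon1 also missed the threshold.

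The arrays were alike in overall level, with medians between 5.08 and 5.13 and correlations between 0.983 and 0.994, and their number limits the precision of each value. Striatal markers were bright in all 8 mice: Penk, the enkephalin precursor, was at 12.51 ± 0.16 in wild-type and 11.22 ± 0.065 in R6/2 mice, and Ppp1r1b (DARPP-32) at 12.17 ± 0.16 in wild-type and 11.25 ± 0.067 in R6/2 mice. Of 13 medium spiny neuron markers 12 fell (92.3%, against 15.3% of all genes called), with means of -0.24 to 0.11 in wild-type and -0.87 to -0.83 in R6/2 mice. Microglia (0 of 9 markers past limma's test, 2 with an unadjusted p under 0.05, means of -0.11 to 0.12 in wild-type and -0.14 to 0.13 in R6/2 mice) and oligodendrocytes (1 of 9 lower, Mobp at -0.38 ± 0.078, means of -0.18 to 0.29 in wild-type and -0.24 to -0.058 in R6/2 mice) had overlapping groups. The share of oligodendrocyte markers called was 11.1%, and Mobp missed the threshold with the mean of its probe sets (adjusted p = 0.199). Ctss and Csf1r, the brightest microglial genes on the list, differed by 0.40 ± 0.12 and -0.078 ± 0.090, and Ctss passed in 4 of the 6 alternatives that kept all mice and without R6/2 mouse 70 (adjusted p = 0.00876). The part of these cell types in the matrix genes was not tested. Each array came from a mouse with its own number, and p-values rest on the spread between animals.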

How the data were processed

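RNA of the striatum of 4 wild-type and 4 R6/2 mice was measured on Affymetrix arrays, 1 per mouse, and groups and mouse numbers follow the labels. The authors deposited log2 values, normalized with RMA (affy), per the submitters' processing notes; the set of arrays that entered this normalization is not stated there. Of 45037 probe sets without controls, 34945 had 1 gene symbol in the platform annotation, 932 several and 9160 no entry. Each gene was represented by its single-gene probe set of highest mean signal across the arrays, which gave 18193 genes.

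Genotypes were compared with limma 3.58.1 (R 4.3.3; lmFit and eBayes, no covariates), with p-values adjusted by Benjamini-Hochberg over all genes and called under 0.05. The scripts were tested on simulated data, in 3 runs with 200 changed genes each. Changes of 0.5 log2 units were recovered in 56.7% and those of 1 in 97.3%, and 6.05% of the calls were false. Far more genes passed in the real data, so these shares need not hold there. Alternatives were quantile normalization, centring of arrays, a filter on the dimmest 40% of genes, the mean of all probe sets, leaving out probe sets with _s_at or _x_at in their ID, trended robust moderation, and leaving out each mouse. For each array, marker lists were scored by averaging, over their genes, the deviation from the wild-type mean.

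The members and all lists were chosen with earlier results of these data known. Genes were named by rule: all members that passed, Abi3bp and Dmkn, all laminins, hyalectans, link proteins, tenascins, linkers, Fn1 and Reln, the chains of types I, III, IV and V, the 6 members with the widest spread within groups, the 4 uncalled members with the largest rise and the 4 with the largest fall. Of each other list, up to 4 called genes with the smallest adjusted p or, with none called, the 2 brightest were eligible. The other members named (further collagens) were added after their values were seen.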

Additional observations from a re-analysis of the deposited data

Results flagged for a closer look

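In 16 of the 234 groups of 4 mice checked (117 genes), 1 mouse lay far from the other 3 by Dixon's criterion; chance alone gives about 1 in 20. Among matrix genes, wild-type mouse 42 was low in Ncan (8.70, the others 9.83 to 10.03) and high in Lamb3 (4.76, the others 4.12 to 4.16) and Col25a1 (7.13, the others 6.79 to 6.84). Wild-type mouse 63 was high in Lamb2 (5.29, the others 5.01 to 5.05) and Tnc (5.06, the others 4.64 to 4.69). Wild-type mouse 48 was high in Col7a1 (5.18, the others 4.89 to 4.90), and wild-type mouse 54 in Col14a1 (4.42, the others 3.99 to 4.03). R6/2 mouse 64 was low in Col9a3 (6.68, the others 7.89 to 8.12) and Col11a2 (5.68, the others 5.90 to 5.93). In Col4a4 and Col4a6, wild-type mouse 54 (3.56 and 5.57) differed little from the other 3, which held identical values (3.60 and 5.54). Among the other genes, R6/2 mouse 64 was low in the choroid plexus gene Ttr (12.26, the others 14.10 to 14.16) and high in Lrp4 (5.69, the others 5.17 to 5.20). Wild-type mouse 42 was high in Kdr (7.23, the others 6.72 to 6.79), R6/2 mouse 78 in Ugdh (8.19, the others 7.97 to 8.01), and R6/2 mouse 65 was low in Npy (8.98, the others 9.42 to 9.51).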

How the results depend on the processing

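The 8 matrix genes that passed kept their direction in all 110 values obtained over 14 alternatives, and passed in 97 of them; the exceptions were those of Col4a2 and Hapln4. The number of members that rose, 1 as reported, was 0 after quantile normalization, 2 with arrays centred on their median (with Col5a2) and 2 without the dimmest 40% of genes (Hapln4 and Col5a2). Leaving out 1 mouse gave 0 to 3 members that rose, 6 to 8 that fell and 1679 to 2545 called genes of all, against 2781 as reported, the lowest numbers being those without R6/2 mouse 70 (1679) and wild-type mouse 48 (1698). The filter on dim genes left 29 of the 68 members. Col6a4 and Hapln1 were among those removed.

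Some members near 0 changed sign. After quantile normalization this held for Lamc3 (0.022), Col1a1 (0.019), Col5a3 (0.0060) and Col12a1 (0.013). With centred arrays it held for Lamb1 (0.0049), Lamc3 (0.0031), Tnr (0.0087), Col1a1 (0.0040) and Col12a1 (0.012). With the mean of probe sets it held for Lama5 (-0.021), Vcan (0.0094), Hapln2 (-0.021), Col4a6 (-0.048) and Col18a1 (-0.0011). Without 1 mouse, the differences spanned 0 in Lamb1 (-0.10 to 0.086), Lamb2 (-0.17 to 0.020), Lamb3 (-0.23 to 0.0012), Lamc1 (-0.011 to 0.057), Lamc3 (-0.071 to 0.047), Ncan (-0.36 to 0.090), Vcan (-0.086 to 0.037), Hapln2 (-0.041 to 0.12), Tnr (-0.14 to 0.16), Col1a1 (-0.068 to 0.070), Col5a3 (-0.11 to 0.052), Col4a6 (-0.042 to 0.036), Col11a2 (-0.14 to 0.032), Col27a1 (-0.022 to 0.093), Col6a5 (-0.12 to 0.021), Col12a1 (-0.035 to 0.033), Col13a1 (-0.14 to 0.0081), Col18a1 (-0.072 to 0.15) and the choroid plexus gene Ttr (-0.18 to 0.72). None of these passed as reported; the cause of the changes was not tested.

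No paired analysis was possible because the mouse numbers differ between the groups. Signal over background limits the dimmer genes, and 4 mice per group limit all of them. The moderated SE had a median of 0.11 over the members and 0.093 over all genes.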
